A study of Mus musculus with 24 samples.

Results

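Sorted thymocyte pools were examined for transcripts that professional antigen-presenting cells and B cells make in quantity: Ighm, Cd74, H2-Aa, H2-Ab1, H2-Eb1, Cst3, Ctss, Lyz2, C1qa and Apoe. The genes were chosen by name, with earlier results of these data known, as a gauge of other cells in the sorts. Every probeset annotated to one of them alone was taken. These 10 genes, of 12393 on the array, had 23 probesets, and 14 of these reached a signal of 32 on all 3 arrays of at least 1 group. In all, 7831 genes had such a probeset. Of the 10 members, 9 could be tested, each by its brightest probeset; C1qa did not reach that level in any group.

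The study followed CD4 T cells that carry 1 transgenic TCR, specific for a hen egg lysozyme peptide on the class II molecule I-Ak and recognised by the clonotype antibody 1G12, in female mice of 6 to 8 weeks. The selected pools were NOD and B10 S+ (early CD4+CD8low CD69+1G12+ cells of TCR mice, entering positive selection) and NOD and B10 S- (cells of the same surface type from TCR insHEL mice, entering negative selection), with 3 arrays each. PreS pools (CD4+CD8+CD69-1G12- cells, before selection) came from TCR insHEL and TCR mice of each strain, with 3 arrays per genotype, and were merged to 6 per strain. The insHEL transgene puts lysozyme under the insulin promoter, which is active at a low level in thymic medullary epithelium through Aire. All mice carried the TCR transgene and the k class II haplotype, and all cells were stained in actinomycin D and alpha-amanitin. The gates used CD4, CD8, CD69 and 1G12 and no marker of B cells, macrophages or dendritic cells. Each array is described as an independent pool of RNA; how many mice stood behind a pool is not given in the sources used here, so p-values measure the spread between these pools, and the number of arrays limits the precision.

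Class II molecules present peptides to CD4 T cells. An alpha and a beta chain pair in the endoplasmic reticulum with the invariant chain, which blocks the groove until cathepsins, with cathepsin S last, cut it away in endosomes and H2-DM loads a peptide. In the mouse, dendritic cells, B cells, macrophages and thymic epithelium carry class II, while mouse T cells are known for lacking it. Ighm encodes the heavy chain of IgM; its locus is also known to give unrearranged (germline) mu transcripts in thymocytes. Lyz2, C1qa and Apoe are abundant in tissue macrophages, which clear dying thymocytes.

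The promoters of 3 members are shown because class II genes share a module (an X box and a Y box, bound by RFX and NF-Y, which recruit the co-activator CIITA), while Ctss, the member that rose with selection, holds other letters. Sequence is from RefSeq, build GRCm38.p6, from 250 bases before to 50 after the start site, written 5′ to 3′ on the strand of the gene; H2-Aa lies at chr17:34287774-34288073 on the minus strand, H2-Eb1 at chr17:34305617-34305916 on the plus strand and Ctss at chr3:95526536-95526835 on the plus strand. Capitals mark GCAACT (an X box core) and CTGATTGG (a Y box) in the class II genes, and in Ctss GAAA repeated after a gap of any 2 bases (a paired site of the kind IRF proteins read).
H2-Aa: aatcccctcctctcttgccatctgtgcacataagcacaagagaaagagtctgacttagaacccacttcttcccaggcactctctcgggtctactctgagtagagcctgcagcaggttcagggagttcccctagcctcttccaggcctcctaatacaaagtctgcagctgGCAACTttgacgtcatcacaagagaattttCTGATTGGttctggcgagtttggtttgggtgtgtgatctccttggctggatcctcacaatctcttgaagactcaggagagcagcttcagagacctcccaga
H2-Eb1: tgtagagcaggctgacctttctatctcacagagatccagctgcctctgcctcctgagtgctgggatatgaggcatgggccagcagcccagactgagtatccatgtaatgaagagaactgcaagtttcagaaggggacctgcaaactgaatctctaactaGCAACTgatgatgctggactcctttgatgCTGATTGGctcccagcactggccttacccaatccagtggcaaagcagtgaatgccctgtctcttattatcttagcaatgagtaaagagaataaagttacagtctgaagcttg
Ctss: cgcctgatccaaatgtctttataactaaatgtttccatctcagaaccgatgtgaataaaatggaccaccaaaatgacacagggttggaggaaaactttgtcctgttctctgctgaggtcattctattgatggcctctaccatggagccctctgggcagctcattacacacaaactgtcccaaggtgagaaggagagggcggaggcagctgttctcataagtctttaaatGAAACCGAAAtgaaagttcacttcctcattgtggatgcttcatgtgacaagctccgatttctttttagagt
In H2-Aa the X box core began at -81 and the Y box at -51, relative to the start site, and in H2-Eb1 at -91 and -62. The Ctss match, GAAACCGAAA, began at -21. Searched on both strands of 32851 promoters, GCAACT was found in 10.9%, CTGATTGG in 4.1%, both in 0.466% and the paired GAAA in 3.44%; the motifs do not overlap one another in these windows. A match describes letters only. H2-Ab1, Ighm and C1qa are named only.

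The pools carried thymocyte markers: all 12 measured genes of a thymocyte list passed the filter, which asks for 1 group only. Ccr7 reached 32 on 14 of 24 arrays, Cd8b1 on 23 and the rest on all 24. Cd3g ranged between 1480.2 and 3099.3, Thy1 between 1649.2 and 6240.9 and Bcl11b between 97.4 and 3323.0. In NOD S+ against B10 S+, 1 of the 12 was lower (Cd3d, log2 difference -1.07) and 2 were higher (Rag1, 1.60, and Dntt, 4.65). Of all probesets, 1.86% were lower and 1.84% higher there. Pax5 and Ebf1, which define B cells, reached 32 on 0 of 24 arrays (highest signals 20.6 and 11.9). Of 18 B cell list genes on the array these were the 2 at 0 arrays; Cd79b, Blk and Pou2af1 reached 32 on all 24, Cd22 on 22 and Ms4a1 on 21. Replicates correlated at 0.843 to 0.967. RNA quality differed between arrays: the 3' to 5' signal ratio of the Gapdh control ranged between 2.19 and 57.2 and was highest on NOD S+ replicates 1 and 2 (57.2 and 40.9, against 3.63 on replicate 3), B10 S+ replicate 1 (29.4, against 3.98 and 3.15) and NOD PreS TCR insHEL replicate 1 (28.9). In such bulk pools, fewer cells of a type and less RNA per cell cannot be told apart.

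**Figure D1:**
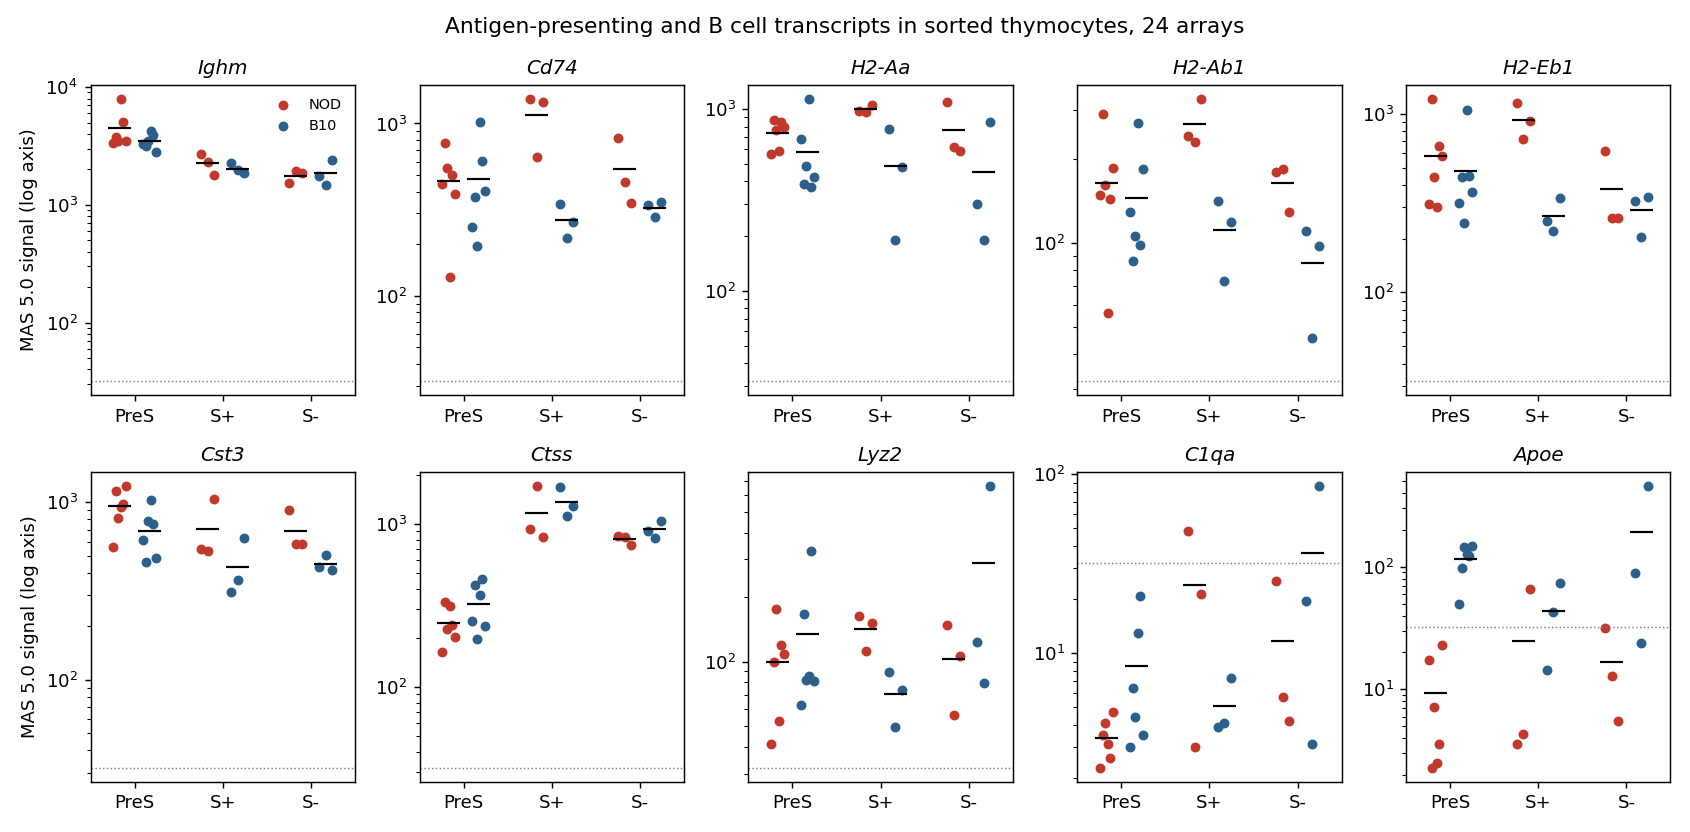
MAS 5.0 signal (log axis) of the brightest probeset of each member on the 24 arrays, for PreS, S+ and S- of NOD (red) and B10 (blue). Points are arrays, black bars are group means, and the dotted line is a signal of 32. Ctss was higher in S+ and S- than in PreS of both strains, with no overlap, and the class II genes were high in NOD S+.

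Ctss, cathepsin S, was the member that rose with selection in both strains. Its signal was 1682.3, 1113.8 and 1283.2 in B10 S+ and 907.6, 818.9 and 1040.7 in B10 S-, against a lowest, median and highest of 196.2, 309.3 and 459.1 in B10 PreS. In NOD it was 923.5, 1708.6 and 834.9 in S+ and 836.6, 834.6 and 737.0 in S-, against 162.8, 232.45 and 329.3 in PreS. Every S+ and S- array lay above every PreS array of both strains. The log2 fold change was 2.11 (SE 0.27, limma adjusted p = 8.8e-05) in B10 S+ and 1.57 (SE 0.27, adjusted p = 0.00161) in B10 S-. In NOD it was 2.19 (SE 0.30, adjusted p = 8.0e-04) in S+ and 1.64 (SE 0.30, adjusted p = 0.00378) in S-. No strain difference in the rise to S+ was shown (0.08 on the log2 scale, SE 0.41, adjusted p = 0.982). S- against S+ gave -0.56 in NOD (SE 0.35, adjusted p = 0.803) and -0.54 in B10 (SE 0.31, adjusted p = 0.571), which missed the threshold. By mean signal the order was B10 S+, NOD S+, B10 S-, NOD S-, B10 PreS and NOD PreS, and only NOD S- and B10 PreS, among neighbours, did not overlap.

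The groups were spread unevenly over 9 hybridization days. With day as a block the Ctss call was kept in B10 S+ but lost in B10 S- (adjusted p = 0.126), NOD S+ (0.388) and NOD S- (0.908). Within the days that held both groups, Ctss was 1.46 and 1.64 log2 units higher in B10 S+ than in PreS, 1.32 higher in B10 S- and 2.46 higher in NOD S+. Each of these values is 1 array against 1. No day held NOD S- and NOD PreS. Without the 3 arrays of highest Gapdh ratio, which leaves NOD S+ with replicate 3 alone, the NOD S+ value was 1.69 with an adjusted p of 0.0680.

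Ighm went the other way. In B10 it was 2255.8, 1972.9 and 1869.4 in S+ and 1746.4, 1461.5 and 2419.5 in S-, against 2827.1, 3395.9 and 4270.9 (lowest, median, highest) in PreS. In NOD it was 2686.6, 2297.5 and 1778.1 in S+ and 1531.0, 1920.0 and 1865.6 in S-, against 3379.8, 3612.15 and 7920.7 in PreS. All 12 S+ and S- arrays lay below all 12 PreS arrays. Ighm fell by 0.70 on the log2 scale in B10 S+ (SE 0.20, adjusted p = 0.0267), by 0.82 in B10 S- (SE 0.20, adjusted p = 0.0156) and by 1.31 in NOD S- (SE 0.32, adjusted p = 0.0188). The NOD S+ value, -0.84 (SE 0.32), missed the threshold (adjusted p = 0.0951). The level was thus highest in cells before selection, and the order of means was NOD PreS, B10 PreS, NOD S+, B10 S+, B10 S-, NOD S-, where only B10 PreS and NOD S+ did not overlap among neighbours.

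The Ighm calls were near the threshold. The B10 S+ call was lost in 7 of 25 alternatives (adjusted p up to 0.124), among them without B10 S+ replicate 2 or 3 (0.0883 and 0.0940) and without B10 PreS TCR insHEL replicate 2 (0.0512). The B10 S- call was lost without B10 S- replicate 1 (0.0750) or 2 (0.114), and the NOD S- call without NOD S- replicate 1, 2 or 3 (0.0806, 0.0601 and 0.0829). The direction was kept in all of these. Within shared days the log2 difference of Ighm from PreS was -0.99 and -0.88 in B10 S+, -1.09 in B10 S- and -0.57 in NOD S+. Each of these values is 1 array against 1. With day as a block the calls were lost (adjusted p = 0.0650 in B10 S+, 0.168 in B10 S- and 1.00 in NOD S-). With day as a random block, all Ctss and Ighm calls were kept.

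Ighm had 11 probesets, which did not behave as one. The second brightest read 367.6, 532.7 and 638.7 in B10 S+ and 159.7, 76.1 and 632.4 in NOD S+, against 1171.1, 1481.5 and 2231.5 in B10 PreS and 912.0, 1152.85 and 1842.4 in NOD PreS. It fell by 1.57 in B10 S+ (SE 0.25, adjusted p = 5.1e-04), by 1.31 in B10 S- (SE 0.25, adjusted p = 0.00312) and by 2.75 in NOD S+ (SE 0.50, adjusted p = 0.00359), while the NOD S- value, -1.47 (SE 0.50), missed the threshold (adjusted p = 0.0753). NOD S+ replicate 3, the one with a low Gapdh ratio, still lay below all 6 NOD PreS arrays. The ratio of the brightest to this probeset was 16.8 and 30.2 on NOD S+ replicates 1 and 2 and 2.81 on replicate 3. Over the 6 arrays with a Gapdh ratio above 12 it ranged between 4.13 and 30.2, and over the other 18 between 1.88 and 4.42. So the size of the NOD S+ change in Ighm depended on the probeset, and the part of RNA quality in it was not tested further. The next brightest ran against both: it read 130.4, 121.0 and 122.6 in NOD S+, against 48.0, 61.1 and 73.1 in NOD PreS, and rose by 0.89 log2 units (SE 0.23, adjusted p = 0.0217). In B10 S- it read 374.3, 69.8 and 162.9, against 45.9, 68.25 and 79.9 in PreS (adjusted p = 0.0594); replicates 1 and 3 lay above every PreS array and replicate 2 among them. Of the other 8 Ighm probesets, 2 passed the filter, through B10 S- or NOD PreS TCR insHEL alone, and neither was called in any comparison.

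**Figure D2:**
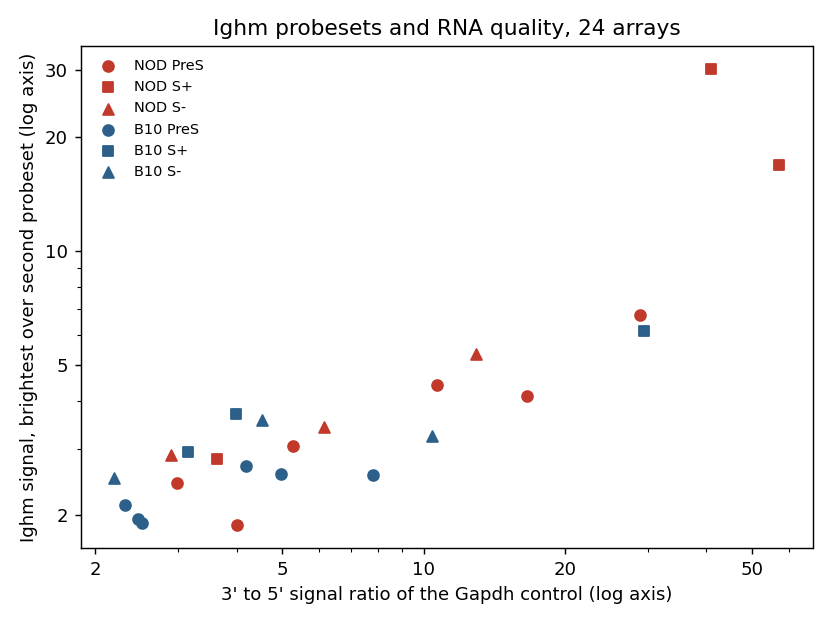
Ratio of the signals of the brightest and the second brightest Ighm probeset against the 3' to 5' signal ratio of the Gapdh control, both on log axes. Each point is 1 of 24 arrays, coloured by strain (NOD red, B10 blue) and shaped by state; NOD S+ replicates 1 and 2 stand at Ighm ratios of 16.8 and 30.2.

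By their brightest probesets the 4 class II transcripts reached 32 on every array, and 2 of them, Cd74 and H2-Eb1, were higher in NOD S+ than in B10 S+. Cd74, the invariant chain, was 1386.5, 639.5 and 1329.0 in NOD S+, against 339.8, 214.7 and 266.1 in B10 S+. H2-Eb1, the I-E beta chain, was 1142.0, 722.1 and 911.4 in NOD S+, against 249.6, 219.2 and 336.7 in B10 S+. For both genes the lowest NOD S+ array was above the highest B10 S+ array. The log2 differences were 2.05 (SE 0.52, adjusted p = 0.0290) for Cd74 and 1.86 (SE 0.47, adjusted p = 0.0265) for H2-Eb1. H2-Aa, the I-A alpha chain, was 974.2, 965.0 and 1058.3 in NOD S+, against 778.5, 189.9 and 482.5 in B10 S+. H2-Ab1, its beta chain, was 242.0, 230.1 and 328.5 in NOD S+, against 141.5, 73.0 and 118.7 in B10 S+. By these probesets the groups did not overlap either, but H2-Aa (1.34, SE 0.49, adjusted p = 0.142) and H2-Ab1 (1.30, SE 0.45, adjusted p = 0.120) missed the threshold. Of the 9 members, 2 were higher and 0 lower in NOD S+ than in B10 S+, beside 1.84% of all probesets higher and 1.86% lower. By unadjusted p under 0.05 the limma count was 5 of 9. The share of all probesets at that looser threshold is not given, so this count cannot be read against a background. The median member difference was 1.00, beside 0.00 over all probesets.

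The strain difference in S+ rested on few arrays. Cd74 kept its call in 12 of 21 alternatives and H2-Eb1 in 14, with log2 differences of 1.81 to 2.47 and 1.66 to 2.04. Without NOD S+ replicate 1 the adjusted p was 0.168 for Cd74 and 0.150 for H2-Eb1, and without B10 S+ replicate 2 it was 0.137 and 0.127. The Cd74 call was also lost without B10 S+ replicate 3 (0.0890), and the H2-Eb1 call without B10 S+ replicate 1 (0.0508). The arrays of poorest RNA were among those compared. Without the 3 of highest Gapdh ratio, which leaves NOD S+ replicate 3 against B10 S+ replicates 2 and 3, the Cd74 difference was 2.47 (adjusted p = 0.241) and that of H2-Eb1 1.73 (adjusted p = 0.589). With the Gapdh ratio as a covariate over all arrays both calls were kept, at 2.21 (adjusted p = 0.0265) and 1.88 (adjusted p = 0.0391). The second H2-Aa probeset read 71.6, 83.9 and 481.0 in NOD S+, against 56.1, 46.2 and 113.2 in B10 S+, so there the replicate with a low Gapdh ratio was the high one. The other 2 H2-Ab1 probesets, which did not pass the filter, ran between 13.2 and 138.7 and between 2.7 and 79.5 in NOD S+, against 8.3 to 49.6 and 1.2 to 10.5 in B10 S+, with overlap in both. No hybridization day held both NOD S+ and B10 S+ arrays, so that day and strain cannot be told apart within a day for this comparison; with day as a block both calls were lost (adjusted p = 0.296 and 0.256).

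Set against PreS, the class II values in S+ were positive in NOD and negative in B10 by the brightest probeset of each gene, but none passed the test. Within shared days, 1 array against 1, the signs differed. In NOD, Cd74 was -0.24, H2-Ab1 -0.41, H2-Eb1 -0.71 and H2-Aa 0.21. In B10, Cd74 was -1.18 and -2.17, H2-Eb1 -0.42 and -2.18, H2-Aa 0.36 and -2.50 and H2-Ab1 0.20 and -1.93. With day as a block, Cd74 and Lyz2 were called in B10 S+ against PreS. The second H2-Aa probeset was negative in both (-0.15 in NOD, SE 0.65, and -0.76 in B10, SE 0.55). From PreS to S+, Cd74 changed by 1.36 (SE 0.47, adjusted p = 0.0671) in NOD and by -0.61 (SE 0.39, adjusted p = 0.323) in B10, and H2-Eb1 by 0.81 (SE 0.42) and -0.70 (SE 0.35). The strain difference in that change was 1.98 for Cd74 (SE 0.64, adjusted p = 0.258) and 1.51 for H2-Eb1 (SE 0.57, adjusted p = 0.383), so no such difference was shown. In PreS itself the strains overlapped widely: Cd74 was 128.8, 472.65 and 766.5 (lowest, median, highest) in NOD and 194.7, 388.2 and 1020.1 in B10. In S-, Cd74 was 824.2, 460.1 and 344.1 in NOD, against 334.1, 286.3 and 348.2 in B10. H2-Eb1 was 616.8, 259.4 and 260.6 in NOD S-, against 324.4, 204.1 and 343.9 in B10 S-. The S- groups overlapped for both genes, with log2 differences of 0.66 (SE 0.52) and 0.29 (SE 0.47). H2-Ab1 did not overlap in S- (129.4 to 184.0 in NOD, against 45.6 to 110.4 in B10; log2 difference 1.05, SE 0.45, unadjusted p = 0.0291, adjusted p = 0.269), and H2-Aa differed by 0.99 (SE 0.49, adjusted p = 0.358) with overlap. None of the 4 passed in S-. NOD S- against NOD S+ gave -1.48 for H2-Eb1 (SE 0.49, unadjusted p = 0.00968, adjusted p = 0.803). In the order of group means NOD S+ came first for all 4 class II genes, and a gap from the next group without overlap was seen for H2-Ab1 only.

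**Figure D3:**
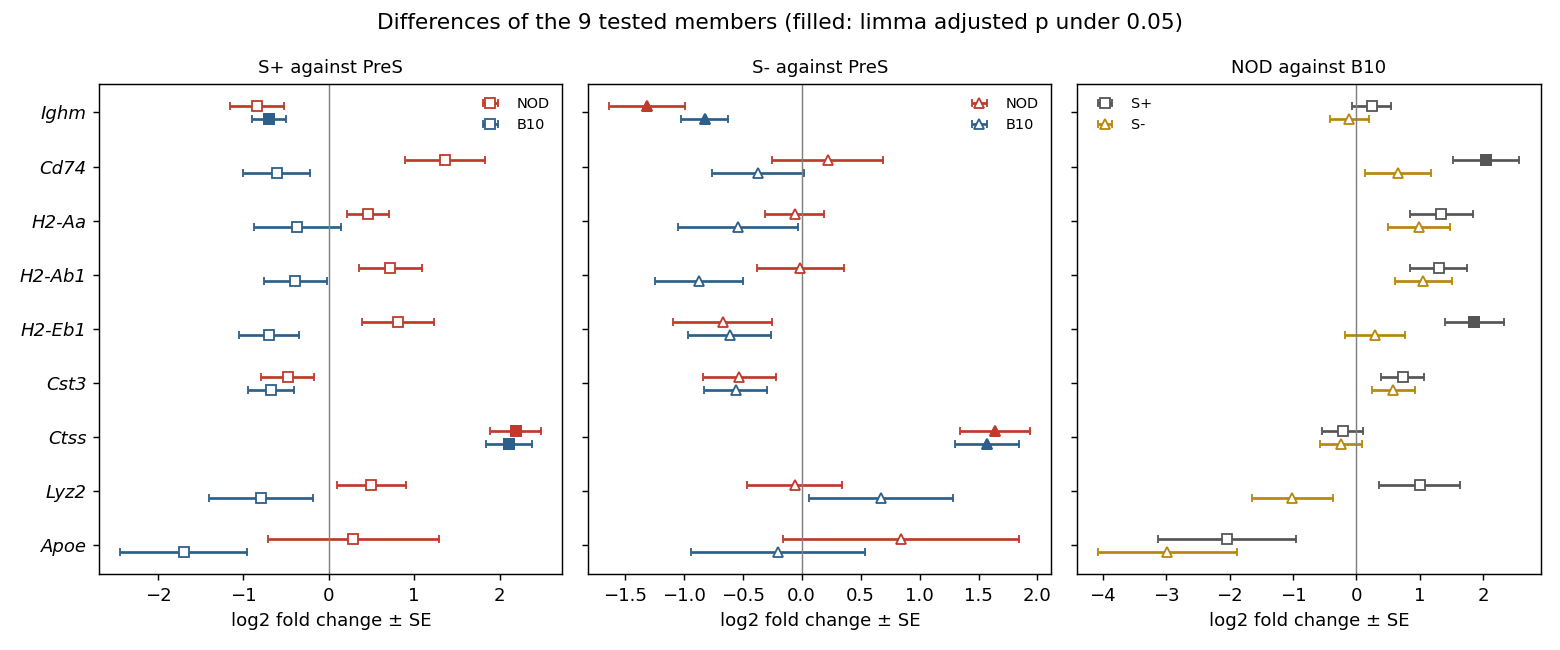
Log2 fold change with its SE for the 9 tested members: S+ against PreS and S- against PreS in NOD (red) and B10 (blue), and NOD against B10 in S+ (grey squares) and S- (yellow triangles). Filled markers have a limma adjusted p under 0.05; Ctss is filled in all 4 selection comparisons, and Cd74 and H2-Eb1 in NOD S+ against B10 S+.

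Over the selection comparisons few members passed. In B10 S+ against PreS, 1 of 9 members was higher (Ctss) and 1 lower (Ighm), where 7.37% of all probesets were higher and 9.44% lower. In B10 S- against PreS the counts were again 1 (Ctss) and 1 (Ighm), beside 4.42% and 6.80%. In NOD S+ against PreS, 1 member was higher (Ctss) and 0 lower, beside 6.13% and 8.66%. In NOD S- against PreS, 1 was higher (Ctss) and 1 lower (Ighm), beside 5.51% and 5.68%. With 9 members these counts are near the background. Between S- and S+, limma called 0 members in either strain (0 in B10 and 1 in NOD had an unadjusted p under 0.05), beside 1.67% of all probesets in B10 and 0% in NOD; the methods' t-test with Benjamini-Hochberg adjustment called 0 as well. In NOD S- against B10 S-, 0 members were called (2 with an unadjusted p under 0.05), beside 2.32%. The strain difference in the change from PreS to S+ was called for 0 members (2 unadjusted) beside 0.358% of probesets, and that from S+ to S- for 0 (2 unadjusted) beside 0.148%. Before selection, TCR insHEL against TCR gave 0 members in B10 (1 unadjusted) and 0 in NOD (0 unadjusted), beside 0% and 0.0312%. All these shares are of adjusted calls, so the unadjusted counts have no background beside them.

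Cst3, cystatin C, a secreted inhibitor of cathepsins that dendritic cells make in quantity, did not pass in any comparison. It was 310.8, 362.7 and 626.1 in B10 S+ and 431.2, 504.0 and 414.5 in B10 S-, against 460.7, 684.35 and 1026.6 in B10 PreS. In NOD it was 541.1, 528.8 and 1045.1 in S+ and 897.5, 579.4 and 584.7 in S-, against 559.2, 959.65 and 1236.1 in PreS. Its 4 values against PreS lay between -0.68 and -0.48, with overlap in each. In the order of means NOD PreS came first and B10 S+ last, and only NOD S- and B10 S- did not overlap among neighbours.

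Among the macrophage genes, Apoe, which carries lipid between cells, had low signals in NOD PreS. NOD PreS read 2.3, 5.4 and 23.2 (lowest, median, highest) and B10 PreS 49.8, 125.05 and 147.0. The groups did not overlap, and the fitted log2 difference was -4.02 (SE 0.77, adjusted p = 0.00221). Within the 3 days that held both strains it was -4.33, -3.71 and -2.34, with 1 B10 array on each day. Apoe passed the filter through B10 PreS alone, the group where it was high, so the filter favoured a difference and the call is no support for one. The NOD PreS signals lay under the level of 32, where MAS 5.0 signals are least precise, so the size of the difference is not well measured. It was the 1 member of 9 that was lower in NOD PreS, with 0 higher, beside 2.48% of all probesets lower and 1.65% higher. In S+ it read 3.6, 4.3 and 66.2 in NOD, against 14.3, 42.6 and 73.4 in B10, and in S- 31.6, 12.9 and 5.5 in NOD, against 89.6, 24 and 458.2 in B10, with overlap in both.

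B10 S- replicate 3 had the highest Lyz2, C1qa and Apoe signals of the series. On it Lyz2, the lysozyme of macrophages and neutrophils, read 661.6, against 123.2 and 79.8 on the other B10 S- arrays and 329.6 at most elsewhere. C1qa, a chain of complement C1q made by tissue macrophages, read 86.3, against 19.7 and 3.1, and Apoe 458.2, against 89.6 and 24. The summed signal of all 21 macrophage markers on the array was 4485.6 there, against a lowest of 2205.5 in the same group. Lyz1 gave 1571.5 of the first sum and 86.8 of the second. As Lyz1 signals cannot be cleanly told apart from Lyz2, the sum is not separate from the Lyz2 value. B10 S- came first in the order of means of all 3 genes, and every neighbour in these orders overlapped the next. C1qa reached 32 on 2 arrays, this one and NOD S+ replicate 1 (48.0). Lyz2 did not pass in any comparison: it was 163.5, 112.1 and 151.8 in NOD S+, against 89.4, 49.3 and 73.6 in B10 S+ (log2 difference 1.00, SE 0.64). Lyz2 has a near-identical paralog, Lyz1, and signals of the 2 cannot be cleanly told apart: of 3 probesets annotated to Lyz1, the brightest was highest on B10 S- replicate 3 (1571.5), the next read 380.7 there and 394.9 on B10 PreS TCR insHEL replicate 2, and the last stayed under 32. The second highest Lyz2 signal, 329.6, was on B10 PreS TCR insHEL replicate 2, where 7 granulocyte genes on the array summed to 3751.7, against 1370.8 at most on any other PreS array.

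Other genes of these cell types were taken from lists, and their part in the member results was not tested. Where NOD S+ was set against NOD PreS, 5 of the 13 macrophage markers that passed the filter rose, among them C1qc (2.85), C1qb (2.77), Csf1r, the receptor for the macrophage growth factor CSF1 (2.37), and Lgals3 (1.87), all log2 fold changes, and 0 fell. Of 7 dendritic cell markers that passed it, 4 rose: the chemokines Ccl17 (2.98) and Ccl22 (2.68), Cd83 (1.77) and the integrin Itgax (1.07). The list medians were 0.87 and 1.07, beside 0.02 over all probesets, of which 6.13% were called higher. C1qc reached 32 on 5 arrays of the series, and Ccl22 and Ccl17 on 7 each, with median signals of 18.2, 21.5 and 20.6. Such genes pass the filter only through a group where they are high. Where that group was NOD S+, the filter favoured a rise, so the calls of these genes are no support for one. Most of their signals lay under 32, so the sizes of these rises are not well measured. Of 6 other class II pathway genes that passed the filter, Ifi30, a thiol reductase of the endosome (1.32), and H2-DMb2, a chain of the peptide loader (1.03), rose and 0 fell. In B10 S- against PreS, Lgmn (1.06) and H2-Oa (0.68) of this list rose. Lgmn reached 32 on 8 arrays of the series, with a median signal of 18.6, so the same limit holds for its rise. In NOD S- against PreS, 0 macrophage markers and 1 dendritic cell marker (Cd83, 2.16) rose, and in B10 S- against PreS likewise 0 and 1 (Cd83, 2.26). Of all probesets, 5.51% rose in NOD S- and 4.42% in B10 S-. In B10 S+ against PreS, 1 macrophage marker rose (the protease Ctsb, 0.70) and 1 fell (Mpeg1, a pore-forming protein, -1.62), and 0 dendritic cell markers rose and 2 fell (the transcription factors Irf8, -1.81, and Tcf4, -0.88). Of 6 granulocyte markers that passed the filter, 3 fell there (S100a9, -3.76, S100a8, -3.70, and Ngp, -2.37) and 0 rose. All 3 were highest on B10 PreS TCR insHEL replicate 2. Of 3 thymic epithelial markers, 1 fell (Epcam, -1.89) and 0 rose. Of all probesets, 7.37% rose and 9.44% fell there. Against B10 S+, NOD S+ had 2 of 13 macrophage, 2 of 7 dendritic cell and 1 of 6 class II pathway genes higher and 0 lower: Mpeg1 (3.02), Lgals3 (2.31), Irf8 (1.81), Itgax (1.43) and Ifi30 (1.21). Of all probesets, 1.84% were higher and 1.86% lower in this comparison. All 21 macrophage markers on the array summed to 3589.1 to 5269.7 in NOD S+, against 2633.7 to 3141.7 in B10 S+, and all 11 dendritic cell markers to 730.5 to 1116.6, against 314.2 to 431.4. The 4 class II members summed to 2556.7 to 3744.7 in NOD S+, against 696.8 to 1509.4 in B10 S+. All 3 sums were higher on every NOD S+ array than on any B10 S+ array, replicate 3 of low Gapdh ratio included. Within NOD S+ they were highest on replicate 1, the array of highest Gapdh ratio (57.2). The macrophage sum took in Lyz1, which cannot be cleanly told apart from the member Lyz2. Lyz1 read 754.7 on NOD S+ replicate 2, the array of lowest sum there, against 55.4 on B10 S+ replicate 3. With Lyz1 left out, the macrophage sums of the 2 groups overlap. Ctsb and Ctsd, also in that sum, had their highest signals of the series in B10 S+ (1213.2 and 1561.3). Without the 3 arrays of highest ratio, 206 probesets in all were called in NOD S+ against PreS and 123 in NOD S+ against B10 S+; the part of RNA quality in the marker values was not tested. Marco, Spic and Mertk, also macrophage genes, reached 32 on 0 arrays.

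Of the 11 B cell list genes that passed the filter, of 18 on the array, 3 fell and 1 rose in B10 S+ against PreS: Cd79b (-1.69) and Blk (-1.67), parts of B cell receptor signalling, and the transcription factor Spib (-1.15) fell, and the tetraspanin Cd37 (1.36) rose. The median was -0.92, beside 0.04 over all probesets, of which 9.44% were called lower and 7.37% higher. In NOD S+ against PreS, 1 fell (Cd79b, -0.96) and 0 rose, beside 8.66% and 6.13% of all probesets. Against B10 S+ 1 was higher in NOD S+, Jchain (3.23), which joins IgM and IgA into polymers, and 0 were lower. Of all probesets 1.84% were higher and 1.86% lower there. Cd72, a co-receptor of B cells, rose in B10 S- against PreS (1.92, adjusted p = 4.4e-05), was higher in B10 S- than in B10 S+ (1.93) and was lower in NOD S- than in B10 S- (-1.88), and Cd79b fell in B10 S- (-0.76) and NOD S- (-0.83) against PreS. Of all probesets, 4.42% rose and 6.80% fell in B10 S- against PreS, and 5.51% and 5.68% in NOD S-. In either direction, 1.67% were called in B10 S- against S+ and 2.32% between the strains in S-. Irf8 was the 1 dendritic cell marker called in B10 S- against S+ (2.03). Between the strains in PreS, the class II pathway gene Cd86 was higher in NOD (1.14) and Blk was lower (-1.25). There, 1.65% of all probesets were higher and 2.48% lower in NOD. All 18 genes on the array summed to 1169.6 to 1791.4 in NOD S+, against 1063.3 to 1290.2 in B10 S+, with overlap. In B10 S+ the class II pathway gene Lgmn, an endosomal protease, rose by 1.77 (adjusted p = 0.00129). As most Lgmn signals lay under 32, the filter may have favoured this rise, and its size is not well measured.

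Within groups, the class II genes varied together from pool to pool. Taken as deviations from the mean of each of the 8 groups over 24 arrays, the 6 pairs among Cd74, H2-Aa, H2-Ab1 and H2-Eb1 had Pearson correlations of 0.48 to 0.82 (median 0.575). The mean of the 4 was then set against 4 other measures by permutation tests within groups. With the mean of 13 macrophage markers r was 0.604 (rho 0.639, permutation p = 0.0145 and 0.00732, adjusted p over the 4 relations 0.058), 0.617 without the 2 arrays farthest from the median, 0.554 within B10 and 0.713 within NOD, so it missed the threshold after adjustment. With the mean of Lyz2, C1qa and Apoe r was 0.425 (rho 0.361, permutation p = 0.0739 and 0.136, adjusted 0.138; without the 2 arrays 0.446), and with the mean of 11 B cell markers 0.333 (rho 0.37, permutation p = 0.103 and 0.0944, adjusted 0.138; without the 2 arrays 0.402). With Ighm it was -0.0103 (rho 0.18, permutation p = 0.974 and 0.509, adjusted 0.974; without the 2 arrays 0.182), with 0.598 within B10 and -0.378 within NOD. Each hybridization day held too few arrays for a value of its own.

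**Figure D4:**
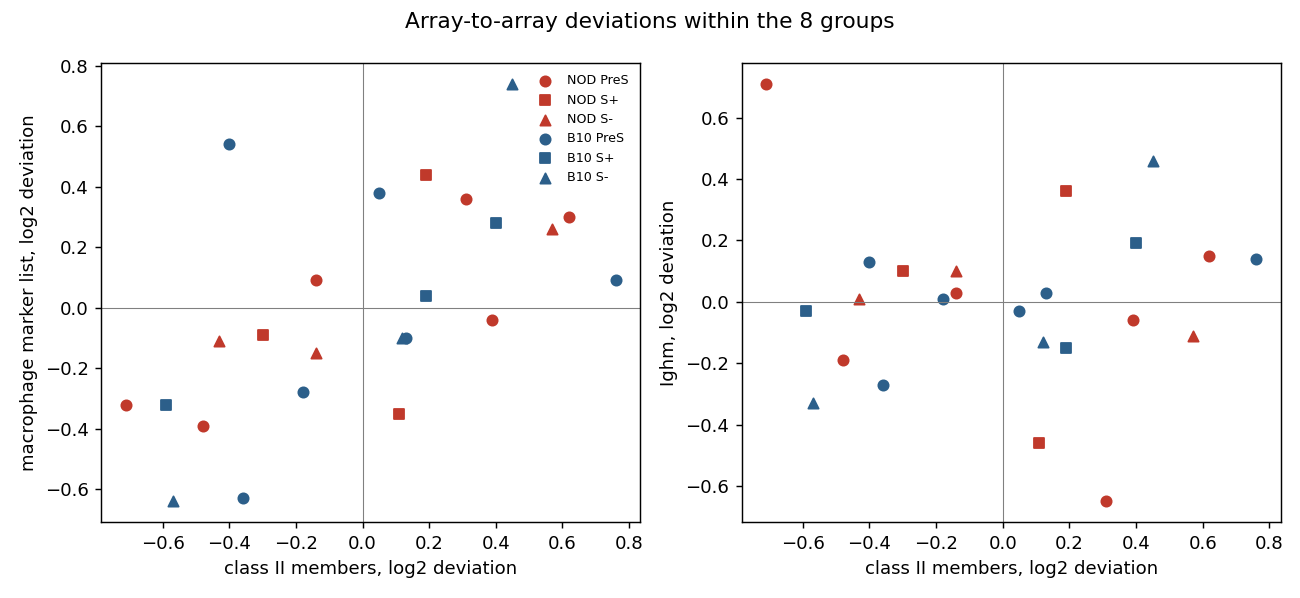
Log2 deviation from the mean of the group for the mean of the 4 class II members (horizontal) against the mean of 13 macrophage markers (left) and Ighm (right). Points are 24 arrays, coloured by strain (NOD red, B10 blue) and shaped by state; r was 0.604 on the left and -0.0103 on the right.

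The genes most like each set, by Pearson correlation of the same deviations over 24 arrays among 7827 genes, were different. For the class II members they were Plbd1 (0.862), Irf8, a transcription factor of dendritic cells and B cells (0.791), Hfe (0.787), Naaa (0.75) and Unc93b1, which carries nucleic acid receptors to endosomes (0.743). For Ighm they were Lamtor3 (0.906), Hibadh (0.876), Ngdn (0.872), Nono (0.869) and Lactb2 (0.866), and all 5 were highest on NOD PreS TCR insHEL replicate 1, as Ighm was; its Gapdh ratio was 28.9. For Lyz2, C1qa and Apoe they were Napsa (0.776), Rilpl2 (0.759), Emc9 (0.726), Morc1 (0.724) and Fn1, fibronectin (0.704). Morc1 signals ran from 0.4 to 91.9, and C1qa reached 32 on 2 arrays only, so part of this rests on low signals. The highest correlation that chance gives among 7827 genes was not worked out, so all 3 lists are descriptions. Ctss correlated with the 4 class II members at -0.13 to 0.32.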

How the data were processed

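The deposited values are Affymetrix 430A probeset signals, which the authors calculated with MAS 5.0 (MAS5 in the submitters' processing notes, version not given in the sources used here) from RNA amplified in 2 rounds, with a scaling target of 150 for the trimmed mean. The scanner logs were used for hybridization day only (9 days). After removal of 64 control probesets, 33 signals of 0 were set to 0.1, log2 signals were standardized per array and returned to 1 shared log2 scale, and a probeset was kept if its signal reached 32 on all 3 arrays of a group (12838 of 22626 were); this stands in for the present calls of the study, which were not used here. Comparisons used limma 3.58.1 in R 4.3.3 with Benjamini-Hochberg adjustment over all kept probesets at 0.05, B10 and NOD fitted apart for selection and together (24 arrays) between strains. A gene was taken by its brightest probeset. Probesets were named through the platform annotation: 20380 had 1 symbol, 691 several and 1555 none. Correlations used 1e+05 permutations (scipy 1.17.1, numpy 2.4.6, pandas 2.3.3, Python 3.11.15), and figures matplotlib 3.10.9.

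The genes named are the 10 members, up to 4 called genes of largest change per marker list and comparison, and the 5 genes most like each set. Calls in the NK cell list are not described. Those in the thymocyte list are given for NOD S+ against B10 S+ only. Members and lists were chosen with earlier results of these data known. Tested on simulated data for B10 S+ against PreS, the fit called, among 12838 probesets, 40 of 100 that were changed by 1 log2 unit and 86 of 100 changed by 2. Alternatives were other scalings, filters, floors, blocks, weights, probesets, sample sets and the methods' t-test, and leaving out each array; 2 on RNA quality (the Gapdh 3' to 5' ratio as a covariate, and without its 3 highest arrays) were chosen after seeing the data. Authors' comparisons, strain loci and other genes were not analysed here.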

Additional observations from a re-analysis of the deposited data

Results flagged for a closer look

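In groups of 6 PreS arrays, 2 of 20 sets of values had 1 array standing apart from the rest by more than the critical gap of 0.625 of the range. For normally distributed values chance flags about 1 in 20 groups. Signals were used here without logs, and their chance rate was not worked out, so 2 of 20 cannot be read as an excess. Ighm in NOD PreS was 7920.7 on TCR insHEL replicate 1, where the nearest array read 5007.8 (gap 0.641 of the range). The same array had the highest Gapdh 3' to 5' ratio of the PreS arrays, 28.9, and an Ighm probeset ratio of 6.75. H2-Eb1 in B10 PreS was 1048.3 on TCR insHEL replicate 1, where the nearest array read 447.4 (gap 0.748). On that array the 4 class II members summed to 3472.4, the highest of the PreS arrays, and the Gapdh ratio was 2.51. What set either array apart was not tested.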

How the results depend on the processing

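None of the 10 called differences changed direction under the alternatives run. Of the counts of members called and the correlations, 277 values under alternatives stayed within 1.5 times and 47 moved, and of the named genes' values 206 kept their call and 38 lost it. Leaving out each array in turn gave 1 to 2 members called in each of the comparisons of S+ or S- with PreS, 0 to 3 in NOD S+ against B10 S+, 1 to 1 in NOD PreS against B10 PreS, and 0 to 0 in the other 7. Calls were added without NOD PreS TCR replicate 2 (Cd74, NOD S+ against PreS), B10 S+ replicate 3 (Cst3, B10 S+ against PreS), and, in NOD S+ against B10 S+, B10 S+ replicate 1 (H2-Aa) and NOD S+ replicate 3 (Apoe). In NOD S+ against B10 S+, in place of 2 members, 0 were called with no filter, with hybridization day as a block, in a fit of only those groups and without the 3 arrays of highest Gapdh ratio, 1 with MAS 5.0 scaling alone and with the methods' t-test after adjustment, 4 with array weights and 5 with the unadjusted t-test. Ighm alone accounted for a count of 1 in place of 2 in B10 S+ (no filter, all 24 arrays in 1 fit, PreS of the same genotype), B10 S- (the last 2 of these) and NOD S- (no filter, second brightest probeset), and day as a block gave 0 in B10 S-, NOD S+ and NOD S-. In NOD S+ against PreS, in place of 1, 2 were called with MAS 5.0 scaling alone, quantile normalization, a floor of 16 or the second brightest probeset, 3 with all 24 arrays in 1 fit, the unadjusted t-test or the Gapdh ratio as a covariate (Ighm and Cd74 added), and 0 without the 3 highest-ratio arrays. Array weights gave 4 in NOD S- against PreS, 2 against S+ and 3 against B10 S-; day as a block gave 1 (Lyz2) in B10 S- against S+. The unadjusted t-test gave 1 in NOD S- against S+, 2 in each strain comparison of PreS and S-, 2 and 1 for the strain differences in change and 1 in B10 PreS between genotypes. No share of all probesets is given beside these unadjusted counts.

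Arrays of the same replicate number in different groups had a mean correlation of deviations of 0.0356. The pairs ranged between -0.324 and 0.632, with 32 of 84 over 0.1. Pairs of unlike number were not set beside them, so whether the numbers pair the samples was not tested. With the replicate block 2, 3, 1 and 2 members were called in B10 S+, B10 S-, NOD S+ and NOD S- against PreS, and all 10 named calls were kept. Merging both PreS groups in the centring gave r = 0.615 between class II members and macrophage markers, past the threshold (adjusted p = 0.0165). No array gives counts of molecules, so signals under 32 limit C1qa and Apoe.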

Other observations

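Igha, the heavy chain of IgA, was singled out after its values were seen, beside Jchain. The signal of its dimmest probeset was 552.5, 321.0 and 1860.3 in NOD S+ and 785.6, 639.4 and 781.3 in NOD S-, against a lowest, median and highest of 63.9, 102.65 and 134.9 in NOD PreS. In B10 it was 112.4, 6.0 and 5.0 in S+ and 79.8, 31.4 and 8.5 in S-, against 7.1, 67.9 and 113.2 in PreS. All 6 NOD S+ and S- arrays lay above every other array, and 2 further Igha probesets read 473.1 to 2680.2 and 405.8 to 1923.8 in NOD S+. H2-Ea, the I-E alpha chain, reached 32 on 2 arrays only and was highest on NOD S+ replicate 1.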
